A study of Mus musculus with 2 samples.

Results

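The cells described here are LSK cells in S phase as marked by their histone transcripts, taken from 2 single-cell RNA libraries of mouse bone marrow. Each cell was first thinned at random to 2000 unique molecular identifiers (UMIs, 1 per captured transcript), so that cells of both libraries were read at the same depth. A cell was kept when it then held a UMI of at least 3 of 6 replication-dependent histone genes (Hist1h1b, Hist1h2ae, Hist1h2ap, Hist2h2ac, Hist1h1a and Hist1h1e) and of fewer than 3 of 7 genes of G2 and mitosis (Ube2c, Cdc20, Ccnb1, Cenpf, Hmmr, Cenpa and Prc1). This histone gate held 1522 of 8610 eligible WT cells and 988 of 9102 eligible cKO cells, together 2510 of 17712 eligible cells among 18129 deposited barcodes. The cells were thus chosen by the transcripts of the 13 gate genes, whose levels are given as a description only.

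The study compared LSK cells, which lack lineage antigens and carry Sca-1 and c-Kit and include the haematopoietic stem and progenitor cells of the marrow, from 3-month-old mice with and without Trmt6. Trmt6 encodes the non-catalytic subunit of the methyltransferase that places m1A on tRNA. The labels give the WT library the genotype Trmt6fl/fl and the cKO library the genotype Trmt6fl/fl, MX1-cre. The study's own account of the mice used for these libraries differs on this point, giving Mx1-Cre and injections of pIpC for both genotypes. Mx1-Cre is switched on by interferon and is not limited to stem cells or to blood, the sort also used an antibody against Flt3, and the number of mice behind each library is not given in the sources used here. With 1 library per genotype no difference has a replicate check, genotype and library cannot be told apart, and the 95% intervals given throughout cover counting error only.

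During S phase a cell copies its DNA and must double its histones. Histone genes lie in clusters, are transcribed in step with replication, and give short messages that end in a conserved stem-loop instead of a poly(A) tail, so libraries primed on poly(A), like these, capture only a part of them. Origins are licensed by the MCM helicase before S phase, replication forks then use polymerases, the sliding clamp and a supply of deoxynucleotides, and genes of spindle and chromosome segregation follow in G2 and mitosis. In LSK cells stem cells divide rarely, while the progenitors primed for myeloid or lymphoid fates divide often.

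The 6 gate genes are shown first by their sequences, because the gate rests on reading them as histone genes of S phase. Promoters from RefSeq (GRCm38.p6, from 250 bases before to 50 bases after the start) were found for 6 of 6. Capitals mark the letters TATAAA of the TATA box, the letters CCAAT of the box of that name, and the letters AAACACA of the H1 box known from linker histone genes, each searched on both strands and shown where either strand held it. Hist1h1b at chr13:21780576-21780875 and Hist1h1e at chr13:23622509-23622808, both on the minus strand, are linker histone genes, and Hist1h2ap at chr13:21833426-21833725, minus strand, is a core histone gene.
Hist1h1b: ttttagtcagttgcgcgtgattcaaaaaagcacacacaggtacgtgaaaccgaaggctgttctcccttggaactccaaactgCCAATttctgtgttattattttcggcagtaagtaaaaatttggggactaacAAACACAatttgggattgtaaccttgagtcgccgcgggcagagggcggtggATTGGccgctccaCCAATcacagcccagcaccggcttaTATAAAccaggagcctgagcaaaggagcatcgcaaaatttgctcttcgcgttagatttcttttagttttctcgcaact
Hist1h1e: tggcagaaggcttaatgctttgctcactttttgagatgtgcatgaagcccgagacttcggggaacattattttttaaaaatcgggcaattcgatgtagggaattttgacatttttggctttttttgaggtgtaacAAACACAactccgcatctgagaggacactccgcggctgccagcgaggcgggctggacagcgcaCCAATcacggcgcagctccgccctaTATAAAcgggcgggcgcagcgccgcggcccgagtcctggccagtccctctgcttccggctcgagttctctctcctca
Hist1h2ap: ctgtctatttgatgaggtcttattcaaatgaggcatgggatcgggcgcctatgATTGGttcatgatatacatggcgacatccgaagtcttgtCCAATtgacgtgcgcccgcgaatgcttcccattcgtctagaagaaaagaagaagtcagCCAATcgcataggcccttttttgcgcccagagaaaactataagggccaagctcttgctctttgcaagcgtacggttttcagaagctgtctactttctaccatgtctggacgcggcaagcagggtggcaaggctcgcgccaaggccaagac
The H1 box was found in Hist1h1b and Hist1h1e and in none of the other 4 windows, CCAAT in 6 of 6, and the letters TATAAA in 5 of 6, the exception being Hist1h2ap. In Hist1h2ae those letters lay on the other strand, at -142 from the start, and in the other 4 they began between -42 and -27. Over 32544 promoters of the same length, 13.6% held TATAAA, 37.4% held CCAAT and 7.196% held AAACACA, against 56.5%, 85.5% and 14.5% of 62 promoters of clustered histone genes. These matches are a description of the letters in the windows.

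The stem-loop at the end of the message was read from the annotated transcripts (GENCODE M21, GRCm38), with the bases of the stem that pair in capitals, as the feature that sets these genes apart from poly(A) genes. Hist1h2ap carries it at chr13:21833029-21833044, Hist1h2ae at chr13:23570668-23570683, Hist1h1e at chr13:23621782-23621797 and Hist2h2ac at chr3:96220418-96220433, all on the minus strand.
Hist1h2ap, Hist1h2ae and Hist1h1e: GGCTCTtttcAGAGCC
Hist2h2ac: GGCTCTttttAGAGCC
The annotated transcript went on for 3 bases after the stem-loop in Hist1h2ap, 57 in Hist2h2ac, 151 in Hist1h2ae and 1153 in Hist1h1e. Its first letters, GGCTCTTTT, were found in transcripts of 49.2% of 65 clustered histone genes and of 2.19% of 21901 protein-coding genes. In Hist1h1a the match ran to the last base of the annotated transcript, and none was found in that of Hist1h1b. The annotated span of Hist1h2be runs into that of Hist1h1e on the same strand, and clustered histone genes are near-identical in their coding parts, so the counts of single histone genes are uncertain.

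The libraries differed in depth. The histone-gated cells had a median of 6308 UMIs in the WT library and 12497 UMIs in the cKO library, a ratio of 1.98, and their UMIs summed to 10923932 and 12691294. After thinning, the median gated cell showed 989 genes in WT and 988 in cKO. Mitochondrial transcripts made up 2.19% and 1.83% of the UMIs of gated cells. No barcode was a gated cell in both libraries, and 24 barcodes were deposited in both.

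A smaller share of the cKO library passed the histone gate. It stood at 17.7% in WT (16.9 to 18.5) and at 10.9% in cKO (10.2 to 11.5), a difference of -6.82 percentage points (-7.86 to -5.79). No gate histone gene was seen in 24.8% of WT and 48.5% of cKO cells. The gate sits on a steep part of this distribution in both libraries: cells with exactly 3 histone genes made up 54.3% of gated WT cells and 66.6% of gated cKO cells, and cells with 5 or 6 made up the fewest. Just outside, cells with 2 histone genes and fewer than 3 G2/M genes were 17.2% of WT and 10.3% of cKO cells. On the other edge, 3.40% of WT and 1.40% of cKO cells had 3 or more histone genes together with exactly 3 G2/M genes.

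**Figure D1:**
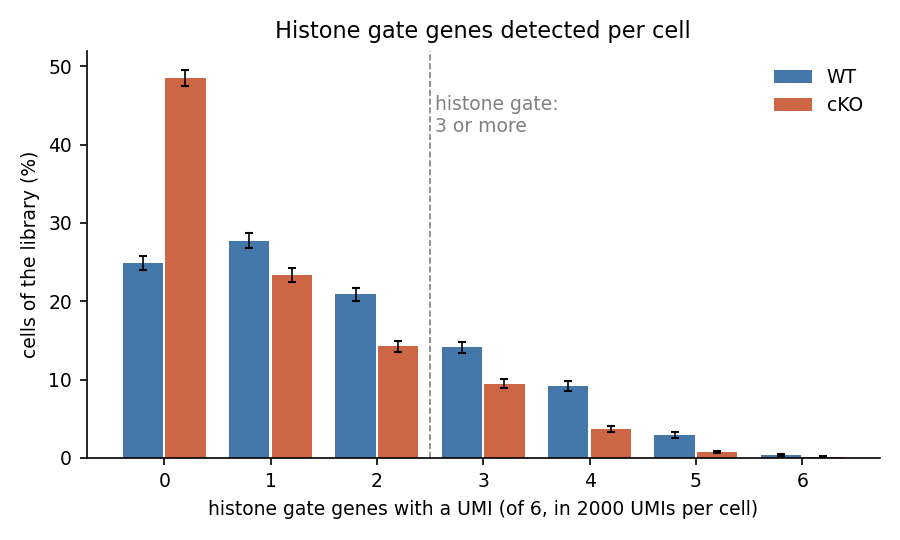
Share of eligible cells in each library (y axis, percent) by the number of the 6 gate histone genes with a UMI in 2000 UMIs per cell (x axis); bars are libraries, and error bars are exact 95% intervals of counting. The cKO bar is the taller one at 0 genes, 48.5% against 24.8%, and the WT bar is the taller one at each number from 1 to 6.

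Summed over the 6 genes, the gate histones were lower in the cKO library in gated cells, whose values the gate itself selected, and in 2 other classes. Gated cells held a mean of 11.2 ± 5.54 UMIs (SD between cells) of the 6 genes per 2000 UMIs in WT (n = 1522 cells) and 5.85 ± 2.20 in cKO (n = 988 cells). In G2/M-gated cells, those with at least 3 of the 7 G2/M genes, the means were 8.19 and 2.56. In reference cells, defined by no UMI of 20 proliferation genes after thinning, which does not show that a cell was outside the cycle, they were 1.75 and 0.449. Cells without a thinned UMI of any gate gene, called gate-negative, had none of these transcripts by definition. From their full UMIs, Hist1h2ap had a log2 ratio of -0.81 (-0.95 to -0.68) there, and the intervals of the other 5 genes, with ratios from -0.40 to -0.04, held 0. A smaller number of cKO cells in S phase cannot be told apart from fewer captured histone transcripts per cKO cell.

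UMIs in the reference cells gave a background for these shares, in which free RNA and the transcripts of those cells cannot be told apart. Hist1h2ap had a UMI in 98.8% of gated WT cells and 95.8% of gated cKO cells, but also in 46.1% of WT and 14.7% of cKO reference cells, whose median depth before thinning was 2965 and 7069 UMIs. The share was further from that of the reference cells for Hist1h1b, with 69.7% and 68.8% of gated cells against 6.61% and 3.88% of reference cells. Of the reference cells themselves, 6.42% in WT (69 of 1075; 5.03 to 8.05) and 1.03% in cKO (9 of 877; 0.470 to 1.94) passed the histone gate. The part of free RNA in the difference between the libraries was not tested.

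Levels below are CPM, the UMIs of a gene summed over the cells of a class and scaled to the total of that sum. Ratios are log2 of cKO over WT with 0.5 counts added. Among the gate genes in gated cells, Hist1h2ap, a core histone gene, stood at 3173 CPM in WT against 939 CPM in cKO (log2 ratio -1.76, -1.79 to -1.73). The core histone gene Hist1h2ae stood at 991 and 606 CPM (-0.71), and the core histone gene Hist2h2ac at 161 and 102 CPM (-0.65). Of the linker histone genes, Hist1h1b stood at 620 and 407 CPM (-0.61), Hist1h1a at 105 and 74.9 CPM (-0.48) and Hist1h1e at 229 and 184 CPM (-0.32). The interval of Hist1h1b (-0.66 to -0.56) overlapped that of Hist2h2ac (-0.75 to -0.54). The gate asks for detection of 3 of these genes in every cell, so the ratios in gated cells are not free of it. In G2/M-gated cells they ran from -2.12 (Hist1h2ap) to -0.87 (Hist1h1e and Hist1h1a), and over all eligible cells from -2.15 (Hist1h2ap) to -0.82 (Hist1h1a). Linker and core genes held no fixed order, since in G2/M-gated cells Hist1h1b, at -1.36, lay under Hist1h2ae at -1.05 and Hist2h2ac at -0.97.

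Whether the gated cells carried a program of S phase beyond histones was checked on 53 genes of origin licensing, replication forks and deoxynucleotide supply, none of them in the gate. The median gated cell showed 10 of these genes in WT (quartiles 7 and 13) and 11 in cKO (8 and 13) per 2000 UMIs. G2/M-gated cells showed 6 in both libraries and reference cells 3 in both. The low number in reference cells is partly built in, since they were chosen for having no UMI of 20 proliferation genes. Gate-negative cells showed 5 in WT and 7 in cKO. The label S phase was thus in keeping with the replication genes, which stood highest in the gated class of each library.

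Replication genes gave another view of the share of S phase cells than histones did. Cells with 10 or more of the 53 genes made up 29.7% of WT and 33.8% of cKO cells. Of these cells, 33.8% (32.0 to 35.7) passed the histone gate in WT and 20.7% (19.3 to 22.2) in cKO, while 14.1% in WT and 30.5% in cKO had no gate gene at all. At 0 to 2 replication genes the gated share was 6.53% in WT and 0.475% in cKO. The WT share was the higher one at every number of replication genes, and cells with many replication genes but no gate gene were the more frequent in cKO.

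**Figure D2:**
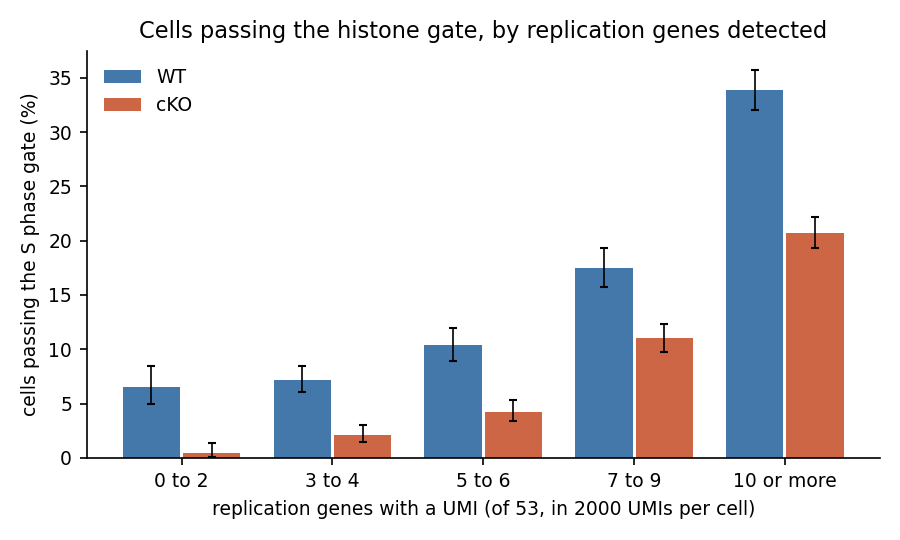
Share of cells that passed the S phase histone gate (y axis, percent) by the number of 53 replication genes with a UMI in 2000 UMIs per cell (x axis); bars are libraries, and error bars are exact 95% intervals of counting. The share climbs with the replication genes in both libraries, to 33.8% in WT and 20.7% in cKO at 10 or more, and the WT bar is the taller one throughout.

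Across 4947 genes with a mean of at least 20 CPM in gated cells, the median log2 ratio was 0.01 and 50.7% were higher in the cKO library. The ratio was 2-fold or more higher in cKO for 114 genes (2.30%) and 2-fold or more lower for 175 genes (3.54%). These shares are the background against which the lists below are counted. The gene lists were written for the roles of S phase cells with earlier results of these data known, and their counts are descriptions of 2 libraries.

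Lists of the replication machinery had medians near 0 over all gated cells. Of 19 genes of origin licensing and firing, 17 were at the level, none was 2-fold apart, and the median log2 ratio was 0.01. Mcm7, a subunit of the MCM helicase, had the lowest ratio, with 188 CPM in WT against 122 CPM in cKO (-0.62, -0.72 to -0.53), and its partners Mcm4 at 60.1 and 45.9 CPM (-0.39) and Mcm6 at 235 and 179 CPM (-0.39) were also lower in cKO. Orc6, part of the origin recognition complex, had the highest, with 89.9 and 124 CPM (0.46, 0.35 to 0.58). Cdt1, which loads the helicase, stood at 51.4 and 64.1 CPM (0.32), and Gmnn, which inhibits Cdt1, at 167 and 168 CPM (0.01). The list as a whole lay at the median of all genes, with members on both sides.

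At the fork, 20 of 23 genes were at the level, none was 2-fold apart and the median was 0.04. Pcna, the sliding clamp, stood at 272 CPM in WT against 293 CPM in cKO (log2 ratio 0.11, 0.04 to 0.18). Rfc2, a subunit of the clamp loader, was the lowest at 331 and 246 CPM (-0.42, -0.49 to -0.35), and Pold2, a subunit of DNA polymerase delta, the highest at 135 and 182 CPM (0.43, 0.34 to 0.53). Lig1, which joins Okazaki fragments, stood at 206 and 204 CPM (-0.02, -0.10 to 0.06), so no difference was detectable at this depth.

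For deoxynucleotide supply, 11 of 11 genes were at the level, none was 2-fold apart and the median was 0.18. The 2 subunits of ribonucleotide reductase differed in direction, with Rrm1 at 174 CPM in WT against 150 CPM in cKO (-0.21, -0.31 to -0.12) and Rrm2 at 194 and 214 CPM (0.14, 0.06 to 0.23). Tyms, thymidylate synthase, stood at 254 and 288 CPM (0.18), and Tk1, thymidine kinase, at 203 and 224 CPM (0.14). Samhd1, which degrades deoxynucleotides, stood at 44.6 and 37.9 CPM (-0.23). Purine and pyrimidine synthesis, with 15 of 16 genes at the level, had the same median of 0.18 and no gene 2-fold apart, from Prps2, a phosphoribosyl pyrophosphate synthetase, at 25.5 and 16.1 CPM (-0.67) to Ctps, CTP synthase, at 22.6 and 33.5 CPM (0.57).

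The genes of serine synthesis and mitochondrial one-carbon metabolism, which feed carbon into nucleotides, stood apart from these lists. Of 7 genes, 6 were at the level, 4 were 2-fold or more higher in cKO and the median log2 ratio was 1.41, beside 1.48 in gate-negative cells. Mthfd2, a mitochondrial folate enzyme, stood at 37.8 CPM in WT against 284 CPM in cKO (log2 ratio 2.91, 2.76 to 3.06). Psph, the last enzyme of serine synthesis, stood at 43.5 and 150 CPM (1.79, 1.64 to 1.94), and Psat1, the step before it, at 68.5 and 180 CPM (1.40, 1.28 to 1.52). Shmt2, which passes carbon from serine to folate in mitochondria, stood at 86.5 and 234 CPM (1.43), and Phgdh, the first enzyme of serine synthesis, at 238 and 454 CPM (0.93). Mthfd1l was the lowest of the list, at 23.9 and 28.7 CPM (0.26).

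Histone chaperones and factors of histone messages were mostly near the median of all genes, with 11 of 14 at the level, none 2-fold apart and a median of 0.11. Slbp, which binds the stem-loop shown above, stood at 241 CPM in WT against 249 CPM in cKO (log2 ratio 0.05, -0.03 to 0.12), and no difference was detectable at this depth. Nasp, a chaperone of histones, stood at 97.7 and 148 CPM (0.60), Hells, a chromatin remodeller of replicating cells, at 136 and 216 CPM (0.67), and Asf1b, another chaperone, at 97.6 and 71.9 CPM (-0.44).

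The clustered histone genes outside the gate were lower in the cKO library. Of 62 such genes, 21 were at the level, all 21 had a ratio under 0, 15 were 2-fold or more lower and the median log2 ratio was -1.64. The list is not independent of the gate, since its members share reads and regulation with the gate genes. Summed over the 62 genes, gated cells held 2172 CPM in WT against 787 CPM in cKO. The ratios ran from -2.68 for Hist2h2aa1, with 120 and 18.7 CPM, to -0.39 for Hist1h4d, with 150 and 114 CPM. Hist1h1c, a linker histone gene, stood at 101 and 37.7 CPM (-1.42). In gate-negative cells only 3 genes of the list were at the level, with a median of -0.41 and none 2-fold apart. Hist1h2an, under the level there at 9.04 and 2.37 CPM, had a log2 ratio of -1.94. In gate-negative cells the gate excludes the sister genes by design.

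Variant histone genes, which are made throughout the cycle and carry poly(A) tails, were measured as a contrast. All 9 were at the level, with a median of -0.31 and none 2-fold apart. H2afz stood at 2940 CPM in WT against 3478 CPM in cKO (0.24, 0.22 to 0.26), H3f3b at 4512 and 2826 CPM (-0.67) and H2afv at 1045 and 554 CPM (-0.92, -0.96 to -0.87). Of the 9, 2 were higher in cKO, so the variant genes did not share 1 direction.

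The G1/S cyclins and E2F genes were near the median of all genes, while D cyclins and inhibitors lay on both sides of it. Of the 12 G1/S cyclins and E2F genes, 7 were at the level, none was 2-fold apart and the median was -0.02, with E2f1, a transcription factor of S phase genes, at 36.2 CPM in WT against 31.4 CPM in cKO (-0.20, -0.41 to 0.00) and Ccne2, an S phase cyclin, at 33.3 and 39.2 CPM (0.23, 0.03 to 0.43). Among D cyclins and inhibitors, 9 of 10 were at the level and 3 were 2-fold apart. Ccnd1, a D cyclin, stood at 9.79 and 31.2 CPM (1.67, 1.36 to 1.99), Cdk6, the kinase partner of D cyclins, at 468 and 190 CPM (-1.30, -1.37 to -1.23) and Cdkn2c, an inhibitor of that kinase, at 31.6 and 10.2 CPM (-1.63, -1.94 to -1.34). Ccnd1 reached the mean level of 20 CPM through its cKO level and Cdkn2c through its WT level. Cdkn1a, which encodes the inhibitor p21, stood at 104 and 156 CPM (0.58, 0.48 to 0.69). The median of that list, 0.18, had no settled direction, since it turned to values as low as -0.11 under other gates.

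Among genes of the S phase checkpoint and of repair, 12 of 20 were at the level, none was 2-fold apart and the median was 0.18. Exo1, an exonuclease of repair, stood at 19.8 CPM in WT against 29.1 CPM in cKO (0.56, 0.31 to 0.81), Chek1, the checkpoint kinase, at 21.6 and 26.7 CPM (0.31, 0.06 to 0.55), and Topbp1, an activator of the checkpoint, at 76.6 and 55.8 CPM (-0.46, -0.60 to -0.31). Cohesin, condensin and topoisomerase genes, with 14 of 14 at the level, had a median of -0.08 and none 2-fold apart, from Ncapd2, a condensin subunit, at 51.9 and 33.0 CPM (-0.65) to Ncapg, another condensin subunit, at 27.6 and 33.1 CPM (0.26).

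Mitotic genes outside the gate were lower in the cKO library within the gated cells. All 20 were at the level, all 20 had a ratio under 0, none was 2-fold apart and the median log2 ratio was -0.32. Nusap1, a spindle protein, had the lowest ratio, with 230 CPM in WT against 116 CPM in cKO (-0.99, -1.09 to -0.90), followed by Ccnb2, a mitotic cyclin, at 141 and 75.6 CPM (-0.90, -1.02 to -0.78). Top2a, the topoisomerase of dividing cells, stood at 450 and 372 CPM (-0.27), and Kif20a, a kinesin of cytokinesis, at 33.8 and 32.9 CPM (-0.04, -0.24 to 0.17). Among gated cells with none of the 7 G2/M genes (605 WT and 390 cKO cells) the median was -0.09, with 1 such gene -0.34 and with 2 such genes -0.38.

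Within each library the gated cells could be ordered by those G2/M genes. The licensing list went from 1694 CPM in WT cells with no G2/M gene to 1583 with 1 and 1265 with 2, and from 1524 to 1476 and 1218 CPM in cKO cells. The mitotic list outside the gate ran the other way, at 1801, 2644 and 3501 CPM in WT against 1690, 1993 and 2605 CPM in cKO. The split uses gate genes that are expressed together with the mitotic list, so its order is partly built in and stands as a description only. The median number of replication genes was 11, 11 and 9 in both.

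Set beside G2/M-gated cells of the same library, the gated cells were richer in replication genes in both libraries, as a description of 2 classes that the gate separates. The median log2 ratio of gated over G2/M-gated cells was 0.93 in WT and 1.07 in cKO for licensing, 0.74 and 0.83 for forks, 0.84 and 0.85 for deoxynucleotide supply and 0.83 and 0.96 for checkpoint and repair. For the mitotic list it was -0.89 and -0.88, with all 20 genes lower in the gated cells of both libraries. The sizes of these contrasts were close in WT and cKO, and their difference was not tested.

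The contrast with gate-negative cells was led by genes of dividing cells. Of the 4947 genes, 165 (3.34%) in WT and 158 (3.19%) in cKO were 2-fold or more higher in gated cells. The 10 genes with the highest smaller ratio of the 2 libraries were Nusap1, Hist1h2an, Mki67, Cdca3, Birc5, Ckap2l, Esco2, Kif11, Ccna2 and Cdca8. Nusap1 stood 4.10 log2 units higher in WT and 4.36 in cKO, Mki67, the marker of proliferation, 3.48 in both, and Esco2, which establishes cohesion in S phase, 3.29 and 3.52. Ccna2, the cyclin of S phase and G2, stood 3.05 and 3.28 higher. All 20 mitotic genes outside the gate were 2-fold or more higher than in gate-negative cells in both libraries, with medians of 2.80 and 2.96. Gate-negative cells were defined by having no UMI of the 13 gate genes, so their low level of mitotic and histone genes restates the gate. Licensing genes were less far apart, with medians of 0.32 and 0.31, and fork genes had medians of 0.63 and 0.57. Set against reference cells instead, the licensing medians were 2.52 in WT and 1.501 in cKO, and the fork medians 1.69 and 1.51. Gate-negative cells held 1221 CPM of the licensing list in WT and 1229 CPM in cKO, while reference cells held 281 and 490 CPM, so gate-negative cells were not cells without replication genes. Reference cells were chosen by a lack of proliferation genes, so their low levels and the larger contrasts with them are partly built in.

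Programs outside the cell cycle carried the largest ratios between the libraries. Genes of the ATF4 response, which answers to a shortage of amino acids and to stress of protein synthesis, were higher in the cKO library: of 30 genes, 20 were at the level, 18 were 2-fold or more higher, none was 2-fold lower and the median log2 ratio was 1.75. The median in gate-negative cells was 1.58, with 17 of 20 genes 2-fold or more higher. Atf4 itself stood at 67.2 CPM in WT against 232 CPM in cKO gated cells (1.79, 1.67 to 1.91). Trib3, a pseudokinase that ATF4 induces, stood at 0.641 CPM, or 7 UMIs, and 172 CPM (7.97, 7.02 to 9.38), Asns, asparagine synthetase, at 12.6 and 198 CPM (3.96, 3.72 to 4.23), and Ddit3, which encodes CHOP, at 19.9 and 114 CPM (2.52, 2.31 to 2.73). Eif4ebp1, a repressor of translation initiation, stood at 140 and 522 CPM (1.90), and Slc7a5, an amino acid transporter, at 20.6 and 76.8 CPM (1.90). The 2 genes under 2-fold were Aars, alanyl-tRNA synthetase, at 141 and 199 CPM (0.50) and Slc38a2, an amino acid transporter, at 42.7 and 47.8 CPM (0.16). Trib3, Asns and Ddit3 reached the mean level of 20 CPM through their cKO level. The count of 18 genes and the median are thus partly shaped by that filter. With so few WT UMIs the size of the Trib3 ratio was not settled, at 6.75 with 2 of 6 histone genes and 6.44 with thinned UMIs summed, and it was 4.92 in gate-negative cells.

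These transcripts were spread over many gated cells. Asns had a UMI, after thinning, in 30.2% of gated cKO cells and 2.10% of gated WT cells, beside 24.1% and 1.67% of reference cells. Trib3 had one in 26.0% and 0.329%, beside 25.7% and 1.49% of reference cells. Nupr1, a chromatin protein of stress responses, had one in 34.6% and 2.04%, beside 33.4% and 4.37%. Within the cKO library the intervals of the shares in gated and reference cells overlapped for Trib3 and Nupr1 and did not for Asns, and the 10 richest cells held 5.002% of the Trib3 UMIs of gated cKO cells.

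Genes of ribosome assembly in the nucleolus were also higher, by less. Of 25 genes, 20 were at the level, 18 had a ratio over 0, none was 2-fold apart and the median log2 ratio was 0.59, beside 0.49 in gate-negative cells. Npm1, nucleophosmin, stood at 1670 CPM in WT against 2620 CPM in cKO (0.65, 0.62 to 0.68), Ncl, nucleolin, at 1027 and 1613 CPM (0.65) and Nop58, a protein of snoRNA particles, at 279 and 484 CPM (0.79, 0.73 to 0.86). The 2 genes under 0 were Fbl, fibrillarin, at 220 and 209 CPM (-0.07) and Pes1 at 62.7 and 58.5 CPM (-0.10). Their intervals held 0, and the sign was that of the pooled gated cells only: read within marker classes of the gated cells (with stem cell markers, with granulocyte-monocyte markers, with neither), all 20 genes had a ratio over 0 in each class.

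Targets of p53 were split. Of 20 genes, 9 were at the level, 5 were 2-fold or more higher in cKO and 2 were 2-fold or more lower, with a median of 1.08. Phlda3, an inhibitor of Akt, stood at 5.401 CPM in WT against 54.5 CPM in cKO (3.32, 2.95 to 3.75), Bbc3, which encodes the death factor PUMA, at 13.1 and 41.1 CPM (1.65, 1.38 to 1.93) and Bax, another death factor, at 134 and 289 CPM (1.11, 1.02 to 1.20). Btg2, an antiproliferative gene that is also an immediate early gene, stood at 93.7 and 18.2 CPM (-2.36, -2.58 to -2.16), and Xpc, a DNA damage sensor, at 69.4 and 33.2 CPM (-1.06). Mdm2, which degrades p53, stood at 21.6 and 27.2 CPM (0.33, 0.09 to 0.58). The median rested on genes of low level, since with a minimum of 50 CPM it was 0.02. Phlda3 and Bbc3 were under 20 CPM in WT and reached the mean level through their cKO level.

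Immediate early genes, which respond within minutes to growth factors and stress, were lower in cKO. Of 26 genes, 18 were at the level, 15 were 2-fold or more lower, none was higher and the median log2 ratio was -2.02, beside -2.20 in gate-negative cells. Jun stood at 1139 CPM in WT against 110 CPM in cKO (-3.37, -3.45 to -3.29) and Fos at 390 and 67.2 CPM (-2.54, -2.65 to -2.43), both being subunits of AP-1. Ccl3, a chemokine, stood at 120 and 2.84 CPM (-5.39, -5.93 to -4.93). Its ratio was -4.58 with 4 of 6 histone genes and -6.63 at 3000 UMIs. After thinning, Ccl3 had a UMI in 15.7% of gated and 28% of reference WT cells. Under 2-fold were Dusp2 at 80.8 and 45.8 CPM (-0.82), Nfkbia at 193 and 117 CPM (-0.72) and Ier5 at 38.1 and 29.6 CPM (-0.37). Within the gated cells the list stood at 4509 CPM in WT cells with 2 G2/M genes and 5827 CPM in WT cells with none, and at 1217 and 1258 CPM in the corresponding cKO cells.

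**Figure D3:**
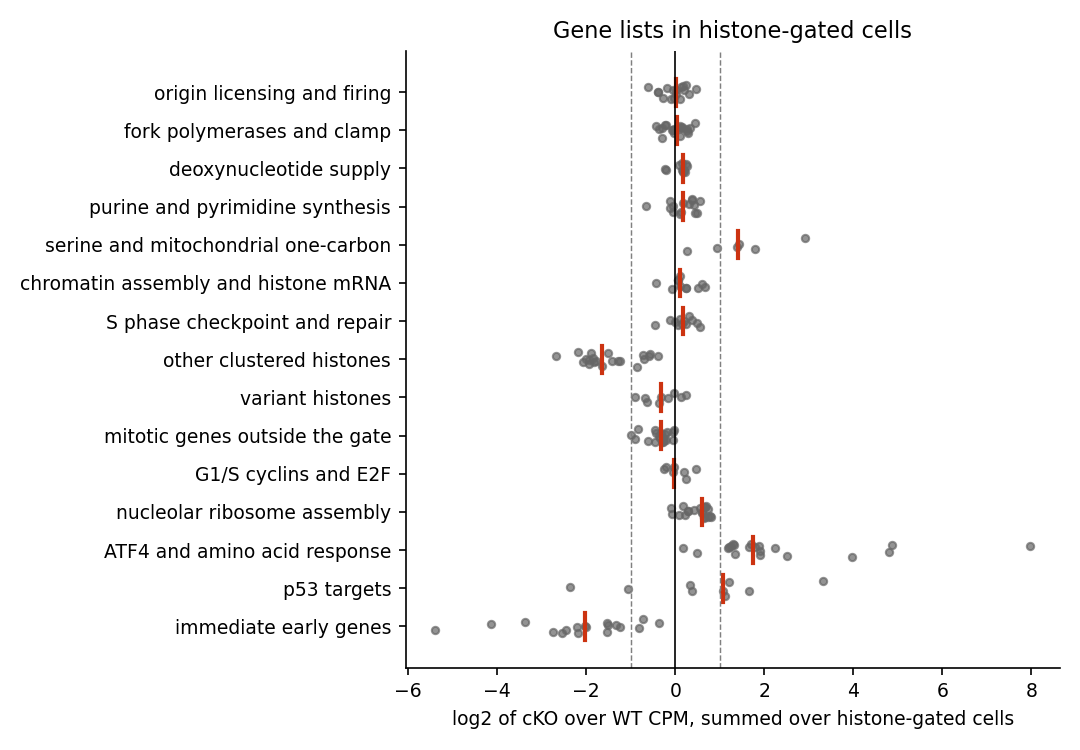
Log2 ratio of cKO over WT CPM (x axis) in histone-gated cells for the genes at the level in 15 lists (y axis); points are genes, red bars are list medians and dashed lines mark 2-fold. The replication lists sit around 0, the other clustered histones around -1.64, the immediate early genes around -2.02 and the ATF4 list around 1.75.

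Of the other lists, cytokine feedback had 5 of 13 genes at the level and 3 of them 2-fold or more higher. Socs2, an inhibitor of cytokine signalling, stood at 0.732 CPM in WT against 78.2 CPM in cKO (6.65, 5.75 to 7.95), Pim2, a kinase of survival, at 10.99 and 29.7 CPM (1.43) and Dusp6, a phosphatase of ERK, at 17.7 and 36.2 CPM (1.03). These 3 reached the mean level of 20 CPM through their cKO level. The others were Spry2 at 23.2 and 19.9 CPM (-0.22) and Pim1 at 262 and 254 CPM (-0.04), and the median of the list, 1.03 over all gated cells, was -0.07 among those with stem cell markers. Interferon-stimulated genes were mostly under the level, with 4 of 20 at it. Ifitm3, a membrane protein of antiviral defence, stood at 440 and 988 CPM (1.17, 1.12 to 1.22), whereas Xaf1, at 28.6 CPM in both libraries, showed no detectable difference (log2 ratio 0.00, -0.22 to 0.23). Among mTORC1 regulators 7 of 15 were at the level and none was 2-fold apart, from Gsk3b, a kinase upstream of the complex, at 87.5 and 63.7 CPM (-0.46) to Akt1s1, a subunit of the complex, at 35.6 and 48.4 CPM (0.44).

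The targeted gene was counted in both libraries. Trmt6 (chromosome 2, 132804207 to 132816055, minus strand) stood at 70.7 CPM in gated WT cells and 57.4 CPM in gated cKO cells, a log2 ratio of -0.30 (-0.45 to -0.15), and at 63.5 and 45.5 CPM in gate-negative cells (-0.48). UMIs are counted from the end of the transcript, and a message that lacks the floxed part can still be counted, so this is no check of the deletion. Trmt61a, the catalytic partner, stood at 17.8 and 36.6 CPM (1.04, 0.80 to 1.29).

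Over all genes at 50 CPM or more in gated cells of a library, the highest ratios were those of Jchain, Trib3, Socs2, Nupr1, Atf5, Prss34, Gem, Asns, Cox4i2 and Angptl6. Nupr1 stood at 8.61 CPM in WT against 253 CPM in cKO (4.87, 4.58 to 5.19), Atf5, a transcription factor of the ATF4 response, at 2.38 and 67.9 CPM (4.81), and Gem, a small GTP-binding protein, at 4.12 and 69.5 CPM (4.06). Cox4i2, a subunit of cytochrome oxidase, stood at 4.21 and 63.1 CPM (3.89) and Angptl6, a secreted factor, at 4.21 and 61.5 CPM (3.85). A pair of these genes rested on few cells. Jchain, the joining chain of antibodies, stood at 0.183 and 136 CPM (9.22), with 94.5% of its cKO UMIs in 10 cells. Prss34, a mast cell and basophil protease, stood at 4.21 and 107 CPM (4.66), with 1360 of 1362 cKO UMIs in 10 cells.

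The lowest ratios were those of Ngp, Camp, S100a9, S100a8, F13a1, Hp, Elane, Ccl3, Ly86 and Wfdc17, most of them genes of granulocytes and monocytes. Elane, neutrophil elastase, stood at 2060 CPM in WT against 42.3 CPM in cKO (-5.60, -5.73 to -5.48), and F13a1, a coagulation factor of monocytes, at 83.5 and 0.394 CPM (-7.59), the latter 5 UMIs of 1 cell. The ratio of F13a1 was -5.36 with 4 of 6 histone genes and -6.04 with thinned UMIs summed. The cKO level of Elane rested on few cells, since 10 of the 988 gated cKO cells held 96.3% of its 537 UMIs. Its ratio was -8.41 with another draw of the thinning, -8.12 with 4 of 6 histone genes and -4.33 at 3000 UMIs. Elane had a UMI, after thinning, in 30.8% of gated WT cells and 26.1% of WT reference cells. Genes of mature neutrophils were carried by few WT cells: S100a8 stood at 1432 and 1.02 CPM (-10.39), and 10 of the 1522 gated WT cells held 92.0% of its UMIs. Ngp, a granule protein, stood at 619 CPM in WT and had no UMI in gated cKO cells, which bounds its log2 ratio at -11.35 when 3 counts over the group are taken as the floor, and Camp, an antimicrobial peptide, stood at 466 and 0.158 CPM (-11.21). Under the alternatives tried, the ratio of Ngp rose as far as -9.87 and that of Camp as far as -7.28. S100a8 had a UMI in 13.3% of gated WT cells but in 25.02% of WT reference cells, a share at or under the background. Wfdc17 likewise had one in 16.5% of gated and 35.8% of reference WT cells.

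The gated cells differed in lineage between the libraries. Granulocyte-monocyte markers, at least 3 of 8 with a UMI, were found in 45.5% of gated WT cells (43.0 to 48.1) and 5.06% of gated cKO cells (3.78 to 6.62), beside 38.1% and 2.57% of all eligible cells. Mpo, myeloperoxidase, stood at 2724 CPM in WT against 111 CPM in cKO, and Ctsg, cathepsin G, at 1227 and 349 CPM. Stem cell markers were found in 5.58% (4.49 to 6.86) of gated WT cells and 12.04% (10.1 to 14.2) of gated cKO cells, beside 11.9% and 16.5% of all eligible cells, so they were less frequent among gated cells in both libraries. The shares depend on the number of markers asked for, and with at least 2 genes they were 72.8% and 13.1% for granulocyte-monocyte and 22.1% and 37.9% for stem cell markers. Mecom, a transcription factor of stem cells, stood at 17.1 and 52.9 CPM (1.62) and Hlf, another, at 42.7 and 67.0 CPM (0.65). Lymphoid-primed markers were found in 5.19% and 1.42% of gated cells, with Dntt, terminal transferase, at 117 and 41.7 CPM (-1.49).

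Cells with 3 markers of another cell type were few. The neutrophil list was found in 1.51% of gated WT cells and in 0 of 988 gated cKO cells (a floor of 3 counts would be 0.304%, and the exact interval reaches 0.373%), and its summed level was 3342 and 6.70 CPM, with Ngp, Chil3, Cd177 and Mmp8 at 0 in cKO. Monocyte or dendritic markers were found in 2.497% and 0.607% of gated cells, B cell markers in 0.197% and 1.62%, mast cell or basophil markers in 0.131% and 0.202%, and erythroid markers in 0.526% and 0.304%. Megakaryocyte markers were found in 14 of 1522 gated WT cells (0.92%) and in 0 of 988 gated cKO cells. No gated cell of either library held 3 markers of T or NK cells or of plasma cells, and Cd3e, Cd3g and Gzma were at 0 in both. With at least 2 genes, monocyte or dendritic markers were found in 12.2% of gated WT and 3.85% of gated cKO cells, neutrophil markers in 6.31% of gated WT cells, and T or NK markers in 1.31% and 1.42%. By that rule plasma cell markers were found in 0% of gated WT and 0.304% of gated cKO cells, and megakaryocyte markers in 3.61% and 0.911%. The plasma cell list summed to 8.06 and 150 CPM, nearly all of the latter Jchain. Of the 1728 Jchain UMIs of gated cKO cells, 872 lay in 1 cell. Without the gated cells that held 3 markers of granulocyte-monocyte, neutrophil, monocyte or dendritic, B, T or NK, plasma or mast cells, 121 genes were 2-fold or more higher in cKO and 185 lower, the ATF4 median was 1.76 and that of the other clustered histones -1.77. Leaving these cells out moved S100a8 to -6.16, Jchain to 7.22 and Prss34 to -1.52, so that the ratio of Prss34 turned with them.

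**Figure D4:**
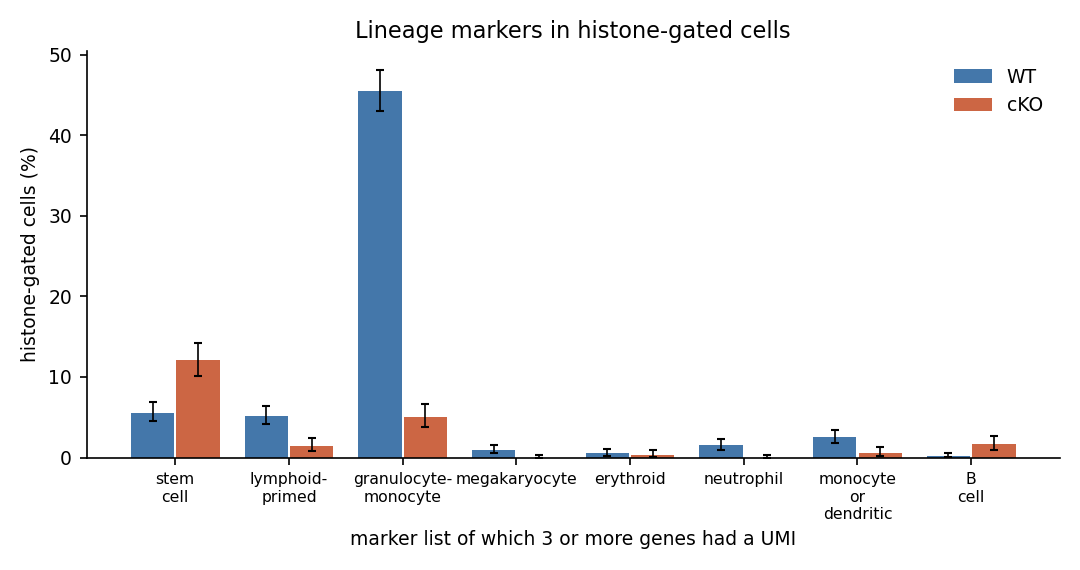
Share of histone-gated cells (y axis, percent) in which at least 3 genes of a lineage list (x axis) had a UMI in 2000 UMIs per cell; bars are libraries, and error bars are exact 95% intervals of counting. Granulocyte-monocyte markers were found in 45.5% of gated WT cells and 5.06% of gated cKO cells, and stem cell markers in 5.58% and 12.04%.

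The share of cells in the histone gate was then read within these marker classes. Among cells with stem cell markers it was 8.33% in WT (85 of 1020; 6.71 to 10.2) and 7.94% in cKO (119 of 1498; 6.63 to 9.43). Among cells with granulocyte-monocyte markers it was 21.1% (693 of 3280; 19.7 to 22.6) and 21.4% (50 of 234; 16.3 to 27.2), and among cells with lymphoid-primed markers 13.2% (79 of 600; 10.6 to 16.1) and 12.2% (14 of 115; 6.82 to 19.6). Among cells with none of these 3 it was 17.4% (714 of 4096; 16.3 to 18.6) and 11.1% (806 of 7262; 10.4 to 11.8). In the 3 marked classes the intervals overlapped between the libraries, and in the unmarked class, which held most cKO cells, they did not. Cells with 10 or more replication genes made up a larger share in cKO than in WT in each of the 4 classes. They were 128 of 1020 WT and 353 of 1498 cKO cells with stem cell markers. With granulocyte-monocyte markers they were 1143 of 3280 and 112 of 234, and with lymphoid-primed markers 118 of 600 and 34 of 115. Among unmarked cells they were 1235 of 4096 and 2574 of 7262. The overlap of gated shares thus does not show equal shares of S phase cells. Gate-negative cells were the more frequent in cKO in each of the 4 classes, with 29.4% in WT and 41.5% in cKO among cells with stem cell markers and 18.0% and 35.9% among unmarked cells.

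The ratios of the gene lists were also read within gated cells of 1 lineage. The ATF4 list had a median of 1.42 among gated cells with stem cell markers (85 WT and 119 cKO cells), 1.63 among those with granulocyte-monocyte markers (693 and 50 cells) and 1.83 among those with neither (766 and 819 cells). The immediate early genes stood at -2.23, -1.65 and -2.44, the serine and one-carbon genes at 1.53, 1.41 and 1.62, and the nucleolar genes at 0.60, 0.57 and 0.74. The other clustered histones stood at -1.30, -0.96 and -1.67. These 5 lists kept their sign in each lineage. The mitotic list did not, with 0.13 among cells with stem cell markers, -0.39 among cells with granulocyte-monocyte markers and -0.35 among the others. Nor did lists of the replication machinery: in the same order the fork genes stood at 0.32, -0.09 and -0.06, the deoxynucleotide genes at 0.41, -0.02 and 0.11, and the licensing genes at 0.13, 0.03 and -0.03.

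Most ratios between the libraries were alike in gated and gate-negative cells. In gate-negative cells, with 5130 genes at the level, 91 (1.77%) were 2-fold or more higher in cKO and 231 (4.50%) 2-fold or more lower. Of 4726 genes at the level in both classes, 197 were 2-fold apart in the same direction in both classes, 1 was 2-fold apart in opposite directions, and 24 had ratios that differed by at least 1 log2 unit. The median difference of the ratios was 0.03.

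The gene in opposite directions was Slpi, which encodes a secreted inhibitor of proteases (chromosome 2, 164354070 to 164389095, minus strand). It stood at 89.8 CPM in WT against 16.8 CPM in cKO gated cells (-2.42, -2.64 to -2.21), but at 38.1 and 83.2 CPM in gate-negative cells (1.12), a difference of -3.54 (-3.83 to -3.25). Of the 213 Slpi UMIs of gated cKO cells, 61.5% lay in 10 cells. Hist1h2bc, a clustered core histone gene (chromosome 13, 23684199 to 23692908, plus strand), stood at 244 and 58.1 CPM in gated cells and at 103 and 124 CPM in gate-negative cells, a difference of -2.33. It was thus higher in gated than in gate-negative cells of the WT library and lower in the cKO library. In G2/M-gated cells Hist1h2bc stood at 288 and 255 CPM (-0.17), and no stem-loop match was found in its annotated transcript. Differences were ranked among genes with a mean of 50 CPM or more in both classes and at least 20 UMIs in each sum. The next lowest were those of Lgals1, galectin, at -0.96, and of Ap3s1, an adaptor of vesicle transport, at -0.74. Irf8, a transcription factor of monocytes and dendritic cells, followed at -0.70.

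On the other side, the highest differences within the same limits of level and UMIs were those of Wfdc17, Nupr1, Elane, Hlf and Ly6a. Nupr1 had a log2 ratio of 4.87 in gated and 3.59 in gate-negative cells, a difference of 1.29 (0.90 to 1.67). The gated ratio of Nupr1 was 3.90 without mature and granulocyte-monocyte gated cells and 4.16 with thinned UMIs summed, both nearer to the gate-negative value. Hlf stood at 42.7 CPM in WT against 67.0 CPM in cKO gated cells and at 113 and 82.6 CPM in gate-negative cells, a difference of 1.10, so its cKO level was the higher one in gated cells and the lower one in gate-negative cells. Ly6a, which encodes Sca-1, the antigen of the sort, stood at 22.2 and 114 CPM in gated cells (log2 ratio 2.36). In gate-negative cells it stood at 64.4 and 171 CPM (1.40), so the ratios differed by 0.96. For Wfdc17 (1.29) and Elane (1.14) both ratios were far under 0. The gated ratio of Elane with another draw of the thinning, -8.41, was under the gate-negative ratio of -6.74 in the first draw, so the direction of its difference is not settled. Gated and gate-negative cells were set apart by transcripts of the same libraries, so these differences carry no test.

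**Figure D5:**
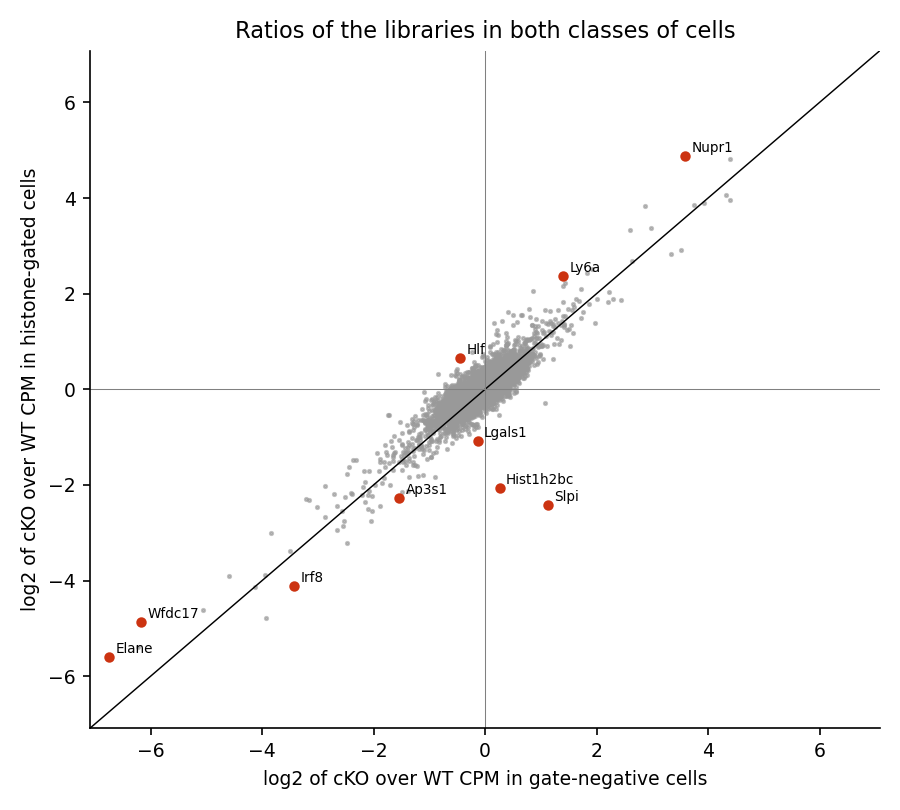
Log2 ratio of cKO over WT CPM in histone-gated cells (y axis) against the same ratio in gate-negative cells (x axis) for genes with at least 20 UMIs in each of the 4 sums; points are genes, red points are the 10 genes with the highest or lowest difference among those at a mean of 50 CPM or more in both classes, and the line marks equal ratios. Most genes lie along the line, and Slpi (-2.42 against 1.12) and Hist1h2bc lie far below it.

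The list medians were also read by the number of histone genes that a gated cell showed. Among cells with 3, 4 and 5 or 6 histone genes, the ATF4 list had medians of 1.79, 1.69 and 1.78, the other clustered histones -1.60, -1.51 and -1.65, and the licensing list 0.04, -0.03 and -0.08. The immediate early genes ran from -2.20 through -1.84 to -1.43, and the mitotic genes from -0.20 through -0.35 to -0.41. Each of these medians kept its sign except that of the licensing list, which lay near 0.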

How the data were processed

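Single-cell RNA was measured in 1 library of WT and 1 library of cKO sorted LSK cells. The deposited matrices hold UMI counts of 27998 genes in each barcode. The authors used Cell Ranger 6.0.0 on the mouse genome mm10 (GRCm38). The genotype label set the groups. The labels name the v2 chemistry of the kit and the study's methods the v3 chemistry. The matrices held 8869 WT and 9260 cKO barcodes with 47991455 and 98323201 UMIs.

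Cells needed more than 200 genes, under 10% mitochondrial UMIs and at least 2000 UMIs. The first 2 filters left out 54 WT and 44 cKO barcodes and the last one 205 and 114. Each cell was thinned to 2000 UMIs without replacement, and the gate was read from the thinned counts. Levels were computed from all UMIs of the cells of a class. Doublets were not removed. As an alternative, 622 WT and 679 cKO cells were marked as likely doublets from simulated doublets among 50 neighbours, 134 and 115 of them among the gated cells.

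Intervals were computed with scipy 1.17.1 (Clopper-Pearson for shares, conditional binomial for ratios, a delta-method approximation for differences of ratios), with numpy 2.4.6, pandas 2.3.3, scikit-learn 1.9.0, matplotlib 3.10.9 and Python 3.11.15. With 1 sample per group no p-value could be had. A list gene was at the level when its mean CPM over both libraries was at least 20 in gated cells. Named genes were the 10 highest and 10 lowest ratios of genes with 50 CPM or more in gated cells of a library, the 10 highest ratios of gated over gate-negative cells, the 5 highest and 5 lowest differences between these classes among genes with at least 20 UMIs in each sum, Trmt6 and Trmt61a, and of each list the highest and lowest gene with up to 3 of known role. Of the list symbols, 6 were not found in the matrices. The gate, the lists and the rules were chosen with earlier results of these data known. The scripts were tested on simulated data. Alternatives changed the draw, the gate, the thinning depth, the filters, the scaling, the minimum level, the number of lineage markers, the prior counts and the comparison cells.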

Additional observations from a re-analysis of the deposited data

Results flagged for a closer look

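Slpi was singled out because its libraries lay in opposite order in 2 classes of cells. Its log2 ratio of cKO over WT was -2.42 in histone-gated cells, where 85 of 988 cKO cells and 303 of 1522 WT cells held a UMI, and 1.12 in gate-negative cells. The ratio was also under 0 in G2/M-gated cells (-2.87) and over all eligible cells (-0.93). The difference was not tested, since each library is 1 sample and both classes come from it.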

How the results depend on the processing

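With 1 library per group the intervals hold counting error only, and detection per cell was limited by the 2000 UMIs of the thinned cells. No paired analysis was possible because each group has 1 library. A second draw of the thinning kept 983 of the 1522 gated WT cells (64.6%) and 506 of the 988 gated cKO cells (51.2%), so the gate describes a class better than it does single cells.

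The share of gated cells was lower in cKO under every alternative gate and filter tried. It was 34.92% in WT and 21.2% in cKO (-13.72 points) with 2 of 6 histone genes, 8.072% and 3.626% (-4.446) with 4 of 6, 26.59% and 13.97% (-12.61) with no G2/M limit, 15.52% and 8.008% at 1500 UMIs, and 21.13% and 14.05% at 3000 UMIs. An alternative chosen after seeing the data, gated cells with a UMI of the 20 proliferation genes, gave 16.88% in WT and 10.76% in cKO. The numbers of genes 2-fold or more higher and lower were 187 and 270 at a minimum of 10 CPM, and 54 and 82 at 50 CPM.

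The median of the serine and one-carbon genes was 1.545 with 2 of 6 histone genes, 1.263 with 4 of 6, 1.637 with thinned UMIs summed and 1.627 without mature and granulocyte-monocyte cells. That of the immediate early genes was -2.353, -1.764 with 4 of 6 and -2.372 without those cells, that of the nucleolar genes 0.7248 without them, and that of the mitotic genes -0.07682 with 2 of 6. The p53 median was 0.7238 at 10 CPM and 0.02336 at 50 CPM. The median of D cyclins and inhibitors reversed to -0.0788 with 4 of 6, -0.0798 with no G2/M limit, -0.1062 at 1500 UMIs and -0.03682 without likely doublets. At 50 CPM the cytokine feedback median reversed to -0.04187 and that of the m1A enzymes to -0.357, with fewer genes. Prss34 reversed to -0.4513 with 2 of 6, -0.8162 at 3000 UMIs and -1.516 without mature and granulocyte-monocyte cells. Against reference cells instead of gate-negative cells, the difference for checkpoint and repair genes reversed to -0.2396, that of fork genes went from 0.04 to -0.25, of p53 targets from 0.10 to -0.12 and of G1/S cyclins and E2F genes from -0.06 to 0.32, while that of mitotic genes went from -0.07 to -1.63 and of licensing genes from -0.11 to -1.12. The causes were not tested. The licensing median of 0.01 had no settled sign, with -0.05 both with 4 of 6 histone genes and at 3000 UMIs and -0.01 at 10 CPM, nor had the fork median of 0.04, with -0.03 at 3000 UMIs and -0.05 without mature and granulocyte-monocyte cells. Of the main results, 190 values under alternatives stayed within the limits set and 29 moved.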
